A study of Mus musculus with 6 samples.

Results

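The nuclear genes for subunits of respiratory complexes II, III, IV and V were followed in cultured CD41+ cells whose marrow donors were Txnip -/- or wild-type mice. Members were all symbols of the deposited table that begin with Uqcr, Atp5 or Cox4 to Cox8, plus Cyc1 and Sdha to Sdhd. The rule uses names and no measured value. It gave 48 of the 24410 symbols, of which 4 fell to complex II, 9 to complex III, 18 to complex IV and 17 to complex V. There were 3 libraries from Txnip -/- mice (KO 1 to KO 3) and 3 from wild-type mice (WT 1 to WT 3), all of strain C57BL/6 and 5 months old. Lineage-negative marrow cells were grown for 3 days in serum-free medium with 10% FBS, 100 ng/mL stem cell factor and 20 ng/mL thrombopoietin, and the CD41+ cells were then sorted. How the allele was made, and whether libraries came from single or pooled mice, is not given in the sources used here. Wild-type and knockout libraries of the same number resembled each other and are called a pair.

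The respiratory chain passes electrons from nutrients to oxygen and pumps protons across the inner mitochondrial membrane. Complex II, succinate dehydrogenase, feeds electrons from the citric acid cycle into ubiquinone, complex III passes them to cytochrome c, and complex IV, cytochrome c oxidase, reduces oxygen. Complex V, ATP synthase, lets the protons flow back and makes ATP. Complexes III to V also hold subunits encoded in the mitochondrial genome, which were not analysed here. Txnip, an alpha-arrestin that binds thioredoxin and limits glucose uptake, has been tied to the balance between glycolysis and mitochondrial fuel use, and the study asked what its loss does during megakaryocyte development.

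Levels are in FPKM, sequenced fragments scaled by transcript length and by library depth, so they can be set side by side between genes. Txnip itself was listed at 0, 0.04 and 0 FPKM in KO 1 to KO 3, against 112, 228 and 143 FPKM in WT 1 to WT 3, a difference of −7.26 on the log2(FPKM + 1) scale (limma, adjusted p = 2.02e-05). Depth is not stated, and the spacing of low values gave best values between about 14600000 and 25800000 fragments, of which that of KO 1, the lowest, was barely better than the next candidate and that of KO 2 matched poorly. Of the megakaryocyte genes, Itga2b, which encodes the sorted antigen CD41 and so is no independent check, lay between 92.8 and 152 FPKM in KO and between 83.2 and 111 FPKM in WT libraries. Pf4, platelet factor 4, lay between 476 and 1545 FPKM in KO and between 465 and 1435 FPKM in WT libraries. Tubb1, the platelet beta-tubulin of late megakaryocytes, lay between 0.34 and 1.47 FPKM in KO and between 0.17 and 1.33 FPKM in WT libraries. Summed neutrophil and granulocyte markers exceeded summed megakaryocyte markers in all 6 libraries. The T cell gene Cd3e was listed at 0 in all 6 libraries.

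Most complex II to V genes averaged 50 FPKM or more, here called strongly expressed, and no member differed between genotypes past the threshold. Of the 48 members, 39 averaged 50 FPKM or more over the 6 libraries, 6 were tested but averaged under 20 FPKM, and 3 were listed at 0 in every library. The test took genes that reached 1 FPKM in 3 or more libraries, which were 45 members among 11249 genes. At an adjusted p under 0.05, limma called 0 members lower and 0 higher in KO, where over all tested genes it called 0.00889% lower and 0.00889% higher. At an unadjusted p under 0.05 the members again gave 0 in either direction, against 0.267% of all tested genes lower and 0.409% higher. In 0 members did all KO libraries lie below all WT libraries, and in 0 above, against 1.03% and 3.32% of tested genes. The fit without a block left differences between the replicate numbers in its error. With the replicate number as a block the adjusted count was 0 members, against 0.0267% of tested genes. At an unadjusted p under 0.05 (limma) the block gave 8 members lower (17.8%) and 0 higher, against 2.28% and 4.66% of tested genes.

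Without a call for any gene, the members still leaned to 1 side. Of 45 members, 39 had a lower mean on the log2(FPKM + 1) scale in KO, a share of 86.7% against 36.6% of all tested genes. Their median difference was −0.18, against 0.06 over all tested genes. This direction depended on scaling. With the libraries rescaled to a common FPKM sum, 22 of 45 members were lower. Their median was then 0.0004, while that of all tested genes was 0.22. With the noncoding RNAs Rpph1 and Rmrp and ribosomal protein genes left out of that sum, 31 were lower, with a median of −0.10. Rescaled by the median ratio between libraries, 43 were lower, with a median of −0.25. Relative to all genes the members' median was −0.24 as deposited and −0.22 with the common sum of all FPKM. It was −0.23 with the reduced sum, −0.24 with the median ratio and −0.09 with quantile normalization. With 1 library left out it ran from −0.43 without KO 2 to −0.05 without KO 1, and it was −0.07 without WT 2. Ribosomal protein genes leaned the same way: 81 of 95 tested cytosolic ones had lower means in KO, with a median of −0.225, and 56 of 77 mitochondrial ones, with a median of −0.11. By complex the median was −0.07 for complex II (4 of 4 lower), −0.18 for complex III (8 of 9), −0.28 for complex IV (14 of 15 tested) and −0.17 for complex V (13 of 17). Summed FPKM of all members was 11240 ± 2750 in KO and 13180 ± 2687 in WT (SD, n = 3 each), a gap smaller than the spread within either genotype. In bulk RNA, fewer cells of a type and less RNA per cell cannot be told apart.

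**Figure D1:**
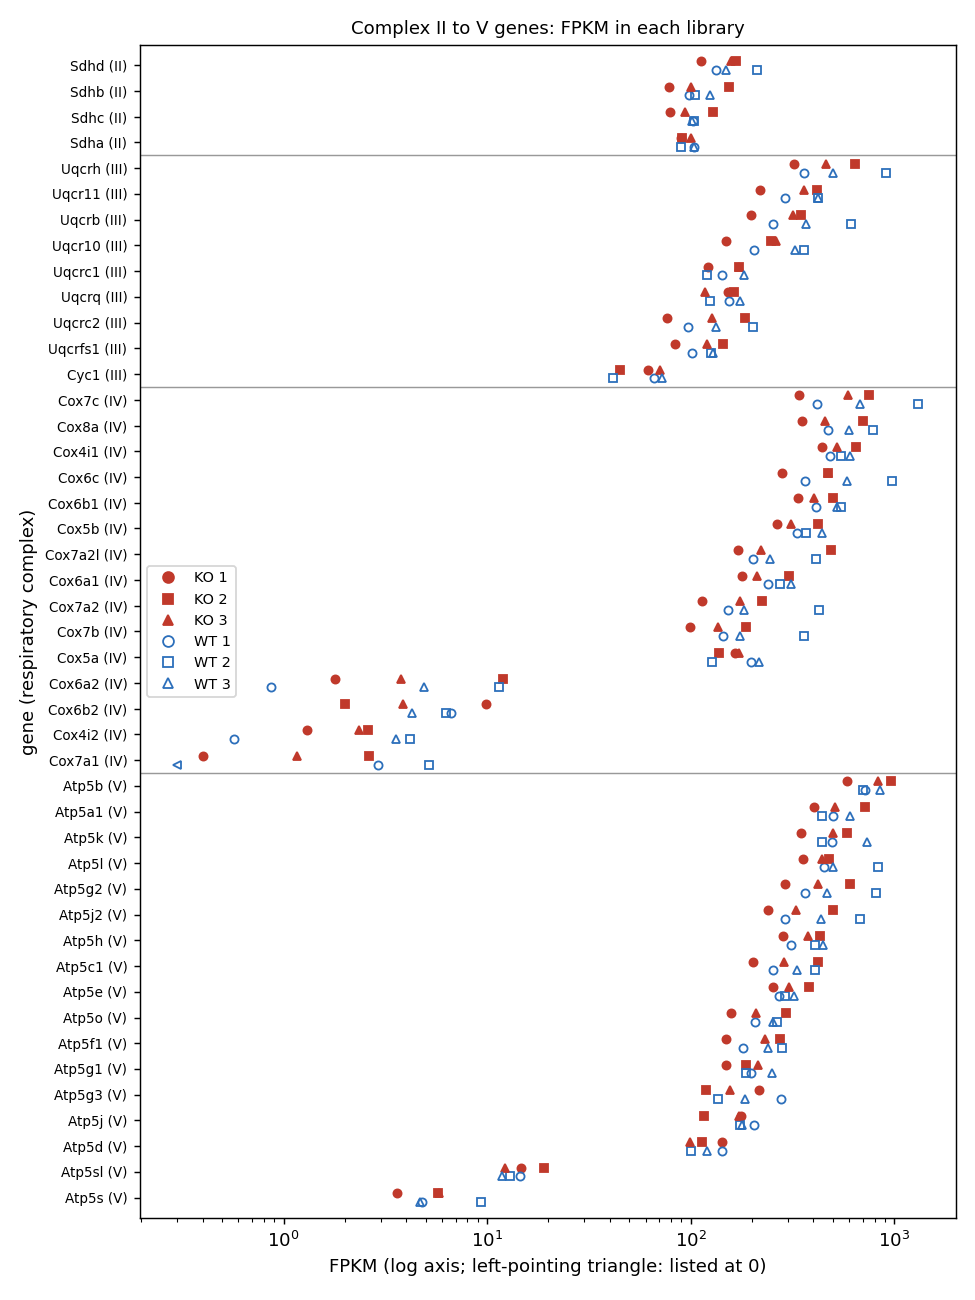
FPKM (log axis) of the 45 tested complex II to V genes in each KO library (filled red) and each WT library (open blue), grouped by complex and ordered by mean. KO and WT libraries overlap in each gene. Circles (number 1), squares (number 2) and triangles (number 3) of the same number often sit together. A left-pointing triangle stands for a value of 0 (Cox7a1 in WT 3).

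The pairs did not behave alike. Members were lower in KO in 40 of 45 cases in pair 1 and in 41 of 45 in pair 3, against 44.5% and 42.0% of tested genes. In pair 2 they were lower in 23 of 45, against 41.1% of tested genes. The median member difference was −0.29 in pair 1, −0.00 in pair 2 and −0.21 in pair 3, beside 0.04, 0.09 and 0.05 over all tested genes. Among the 39 members of 50 FPKM or more, 38 were lower in pair 1, 19 in pair 2 and 38 in pair 3. In 18 members KO was lower in each pair (8.68% of tested genes were), and in 1, Atp5sl, KO was higher in each (20.4% of tested genes were).

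Members also shared a pattern over libraries. KO 1 held the lowest value of 32 of the 45 members, although it held the lowest value of only 17.8% of all tested genes. The highest value stood in WT 2 for 18 members, in KO 2 for 12, in WT 3 for 10, in WT 1 for 3, in KO 1 for 2 and in KO 3 for 0. Over all tested genes the highest value stood in KO 1 to KO 3 for 33.7%, 20.4% and 9.89%. In WT 1 to WT 3 it stood for 13.9%, 13.3% and 8.95%. Summed member FPKM was 8480, 13980 and 11260 in KO 1 to KO 3, against 10430, 15800 and 13310 in WT 1 to WT 3. Cytosolic ribosomal protein genes took 13.5%, 26.5% and 18.8% of all FPKM in KO 1 to KO 3, against 16.4%, 21.6% and 22.1% in WT 1 to WT 3. KO 1, WT 1 and KO 3, in that order from the bottom, were the 3 lowest libraries by both measures. The measures are unlike, a sum for the members and a share for the ribosomal protein genes. As a share of all FPKM the members took 1.182%, 1.735% and 1.574% in KO 1 to KO 3, against 1.449%, 1.396% and 1.811% in WT 1 to WT 3. By that share the order did not hold, and WT 2, with the largest FPKM total (1131641), lay next above KO 1. The summed FPKM of 12 megakaryocyte markers was 725, 1920 and 1058 in KO 1 to KO 3, against 689, 1820 and 1420 in WT 1 to WT 3, so number 1 was lowest and number 2 highest in both genotypes. Most of each sum was Pf4, at 476, 1545 and 772 FPKM in KO 1 to KO 3, against 465, 1435 and 1129 FPKM in WT 1 to WT 3. The part of the ribosomal protein and megakaryocyte genes in the members' values was not tested.

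**Figure D2:**
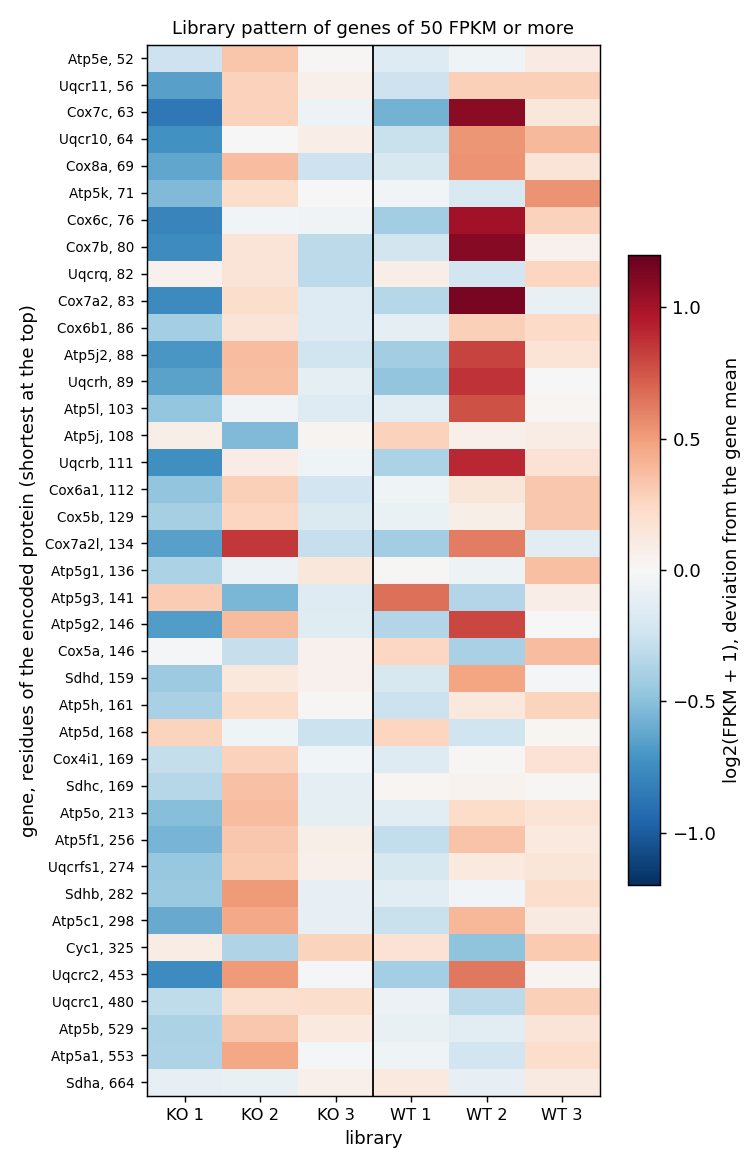
Deviation of log2(FPKM + 1) from the gene's mean over 6 libraries (colour) for the 39 members of 50 FPKM or more, with KO libraries left of WT libraries and genes ordered by protein length in residues, shortest at the top. The KO 1 column is mostly blue, and the WT 2 column is dark red for many short proteins and pale or blue for several long ones.

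Complex II differs from the others in having all its subunits encoded in the nucleus. Sdha, the flavoprotein that oxidises succinate, was at 89.5, 90.2 and 100 FPKM in KO 1 to KO 3, against 104, 89.3 and 103 FPKM in WT 1 to WT 3. This steadiest of the strongly expressed members had its highest library exceeding its lowest 1.16-fold, with a difference of −0.08 (SE 0.19). Sdhb, the iron-sulfur subunit that hands electrons on, was at 78.5, 154 and 100 FPKM in KO 1 to KO 3, against 98.0, 105 and 125 FPKM in WT 1 to WT 3. Its KO libraries spanned the whole WT range. Sdhc, a membrane anchor, was at 79.2, 129 and 93.3 FPKM in KO 1 to KO 3, against 102, 104 and 102 FPKM in WT 1 to WT 3. Sdhd, the other anchor, was at 113, 166 and 158 FPKM in KO 1 to KO 3, against 134, 212 and 150 FPKM in WT 1 to WT 3. In each of the 4 genes the KO libraries overlapped the WT libraries.

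In complex III the core and redox subunits had differences between −0.18 and 0.06, and the accessory ones between −0.46 and −0.07. Uqcrc1 and Uqcrc2 are the core proteins, Uqcrfs1 is the Rieske iron-sulfur protein and Cyc1 is cytochrome c1. Cyc1 was at 62.0, 45.1 and 70.4 FPKM in KO 1 to KO 3, against 65.8, 41.3 and 72.6 FPKM in WT 1 to WT 3. Number 2 was lowest in both genotypes, and the difference was −0.00 (SE 0.27). Uqcrfs1 was at 84.0, 144 and 121 FPKM in KO 1 to KO 3, against 101, 125 and 128 FPKM in WT 1 to WT 3. Uqcrc1 was at 121, 172 and 174 FPKM in KO 1 to KO 3, against 143, 121 and 183 FPKM in WT 1 to WT 3. In both, KO was lower in pairs 1 and 3 and higher in pair 2. Uqcrc2 averaged 130 ± 54.3 FPKM in KO and 144 ± 53.0 FPKM in WT (SD, n = 3 each). Among the accessory subunits, Uqcrb was at 198, 349 and 317 FPKM in KO 1 to KO 3, against 253, 615 and 370 FPKM in WT 1 to WT 3. Each KO library was below the WT library of its number, with a difference of −0.46 (SE 0.36; limma, adjusted p = 1.00). Uqcr10 was at 149, 248 and 262 FPKM in KO 1 to KO 3, against 206, 359 and 326 FPKM in WT 1 to WT 3, a difference of −0.43 (SE 0.31). It too was lower in KO in 3 of 3 pairs, with overlapping genotypes. Uqcrh, the acidic hinge protein beside cytochrome c1 and the most abundant complex III transcript, was at 321, 642 and 462 FPKM in KO 1 to KO 3, against 360, 914 and 499 FPKM in WT 1 to WT 3. Uqcr11 was at 219, 419 and 361 FPKM in KO 1 to KO 3, against 290, 420 and 420 FPKM in WT 1 to WT 3. KO 1 was the lowest library in both. Uqcrq averaged 145 ± 23.8 FPKM in KO and 152 ± 25.5 FPKM in WT.

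Complex IV held the lowest differences of the strongly expressed members. Cox4 to Cox8 subunits surround the mitochondrially encoded catalytic core. Cox7b had the lowest difference of the 45 tested members. It was at 99.6, 188 and 136 FPKM in KO 1 to KO 3, against 144, 361 and 175 FPKM in WT 1 to WT 3. A difference of −0.61 (SE 0.37) was measured, and KO was the lower library in 3 of 3 pairs, but KO 2 exceeded WT 1 and WT 3 (limma, adjusted p = 1.00). Cox6c was at 281, 475 and 471 FPKM in KO 1 to KO 3, against 365, 976 and 589 FPKM in WT 1 to WT 3, a difference of −0.58 (SE 0.39). Cox7c, the most abundant complex IV transcript, was at 340, 748 and 591 FPKM in KO 1 to KO 3, against 416, 1315 and 678 FPKM in WT 1 to WT 3. For Cox6c and Cox7c, WT 2 alone stood far above the other 5 libraries. Without WT 2, the differences were −0.22 for Cox7b, −0.22 for Cox6c and 0.00 for Cox7c. Cox7a2 was at 113, 224 and 174 FPKM in KO 1 to KO 3, against 152, 426 and 182 FPKM in WT 1 to WT 3, with WT 2 again on top. Its difference was −0.47 (SE 0.41), and −0.02 without WT 2.

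The remaining widely expressed complex IV genes had differences nearer 0. Cox4i1, which binds ATP as a regulator of the enzyme, was at 442, 652 and 525 FPKM in KO 1 to KO 3, against 483, 545 and 606 FPKM in WT 1 to WT 3, a difference of −0.03 (SE 0.25). Cox5a, at 166, 138 and 173 FPKM in KO 1 to KO 3, against 198, 128 and 216 FPKM in WT 1 to WT 3, differed by −0.15 (SE 0.25). Cox5b, Cox6a1, Cox6b1 and Cox8a had differences between −0.33 and −0.21. Cox7a2l, related to Cox7a2 and known to help join complexes III and IV into supercomplexes, averaged 293 ± 169 FPKM in KO and 287 ± 112 FPKM in WT. In it KO 2 and WT 2, at 487 and 413 FPKM, stood above the other 4 libraries, which lay between 171 and 246 FPKM.

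In both genotypes the widely used complex IV isoforms far exceeded the tissue-restricted ones. Several complex IV subunits have a second gene used in heart and skeletal muscle (Cox6a2, Cox7a1, Cox8b), in lung (Cox4i2) or in testis (Cox6b2, Cox7b2, Cox8c). Cox4i2 was at 1.30, 2.60 and 2.34 FPKM in KO 1 to KO 3, against 0.57, 4.20 and 3.55 FPKM in WT 1 to WT 3, while Cox4i1 averaged 540 ± 106 FPKM in KO and 545 ± 61.3 FPKM in WT (SD, n = 3 each). Cox6a2 was at 1.78, 12.0 and 3.79 FPKM in KO 1 to KO 3, against 0.87, 11.4 and 4.87 FPKM in WT 1 to WT 3, with number 2 highest in both genotypes. Its partner Cox6a1 was at 179, 304 and 213 FPKM in KO 1 to KO 3, against 241, 276 and 312 FPKM in WT 1 to WT 3. Cox6b2 was at 9.89, 2 and 3.88 FPKM in KO 1 to KO 3, against 6.63, 6.26 and 4.26 FPKM in WT 1 to WT 3, while Cox6b1 averaged 415 ± 82.0 FPKM in KO and 496 ± 71.9 FPKM in WT. The KO libraries of Cox6b2 spanned its WT range. Cox7a1 was at 0.40, 2.63 and 1.17 FPKM in KO 1 to KO 3, against 2.92, 5.18 and 0 FPKM in WT 1 to WT 3. Cox8a, the widely used form of the last subunit, was at 351, 702 and 456 FPKM in KO 1 to KO 3, against 473, 789 and 603 FPKM in WT 1 to WT 3. Cox7b2, Cox8b and Cox8c were listed at 0 in all libraries and were not tested.

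Complex V divides into the catalytic head, the stalks and the membrane ring. The alpha and beta subunits of the head had differences near 0. Atp5b, the catalytic beta subunit and the most abundant member, was at 588, 961 and 830 FPKM in KO 1 to KO 3, against 721, 702 and 854 FPKM in WT 1 to WT 3. Atp5a1, the alpha subunit, was at 404, 720 and 512 FPKM in KO 1 to KO 3, against 502, 444 and 604 FPKM in WT 1 to WT 3. Both were lower in KO in pairs 1 and 3 and higher in pair 2, by 0.45 for Atp5b and 0.70 for Atp5a1, and their mean differences were 0.04 (SE 0.27) and 0.05 (SE 0.28). Of the central stalk, the gamma subunit Atp5c1 averaged 304 ± 112 FPKM in KO and 332 ± 76.1 FPKM in WT, the delta subunit Atp5d 119 ± 22.2 FPKM in KO and 121 ± 20.9 FPKM in WT, and the epsilon subunit Atp5e 313 ± 64.1 FPKM in KO and 295 ± 26.3 FPKM in WT (SD, n = 3 each). Atp5j, the peripheral stalk factor F6, was at 177, 116 and 172 FPKM in KO 1 to KO 3, against 204, 175 and 179 FPKM in WT 1 to WT 3, and only KO 1 exceeded the lowest WT library. The peripheral stalk genes Atp5f1, Atp5h, Atp5j and Atp5o had differences between −0.29 and −0.10.

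Small membrane subunits followed. Atp5l, subunit g, was at 356, 478 and 442 FPKM in KO 1 to KO 3, against 451, 836 and 500 FPKM in WT 1 to WT 3, a difference of −0.44 (SE 0.29; limma, adjusted p = 1.00). Atp5j2, subunit f, was at 239, 500 and 329 FPKM in KO 1 to KO 3, against 289, 680 and 435 FPKM in WT 1 to WT 3, a difference of −0.38 (SE 0.38). In both, KO was lower in 3 of 3 pairs and the genotypes overlapped. Atp5k, subunit e, averaged 479 ± 119 FPKM in KO and 558 ± 156 FPKM in WT (SD, n = 3 each). The rule also took in Atp5s and Atp5sl, which by name belong to ATP synthase but are not structural subunits. Atp5s averaged 5.05 ± 1.27 FPKM in KO and 6.27 ± 2.67 FPKM in WT, and Atp5sl 15.3 ± 3.46 FPKM in KO and 13.1 ± 1.34 FPKM in WT.

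Atp5g1, Atp5g2 and Atp5g3 encode the same mature c subunit of the ring, with different import sequences. The shares of Atp5g2 and Atp5g3 in the summed c-subunit FPKM went with the replicate number. Atp5g2 took 44.4%, 66.6% and 53.1% in KO 1 to KO 3, against 43.6%, 71.6% and 51.6% in WT 1 to WT 3. Atp5g3 took 32.8%, 13.0% and 19.8% in KO 1 to KO 3, against 33.0%, 11.9% and 20.5% in WT 1 to WT 3. For these 2 genes the genotypes differed less within a number than the numbers did within a genotype. Atp5g1 took 22.7%, 20.4% and 27.1% in KO 1 to KO 3, against 23.5%, 16.5% and 27.9% in WT 1 to WT 3, highest in number 3 in both. The sum itself was 657, 912 and 793 FPKM in KO 1 to KO 3, against 839, 1139 and 900 FPKM in WT 1 to WT 3, lower in KO in 3 of 3 pairs. Genes of this family and other small subunits have processed pseudogenes, so their single values depend on how reads were shared.

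Promoters of 5 members show the range of sequence among them, 3 of short accessory subunits with low differences and 2 of long subunits with differences near 0. Promoters here are RefSeq's on GRCm38.p6, from 250 bases before to 50 after the gene start, and each line gives the last 150 bases of that window. Capitals mark matches, on either strand, to the core letters of 3 factors known for nuclear respiratory genes: GCGCATGC for NRF1, CCGGAAG for ETS factors such as GABP, and AAGATGGC for YY1.
Cox7b (chrX:106015600-106015749, + strand): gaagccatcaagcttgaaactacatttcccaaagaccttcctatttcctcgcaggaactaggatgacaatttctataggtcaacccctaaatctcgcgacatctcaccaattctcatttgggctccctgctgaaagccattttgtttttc
Cox8a (chr19:7217567-7217716, - strand): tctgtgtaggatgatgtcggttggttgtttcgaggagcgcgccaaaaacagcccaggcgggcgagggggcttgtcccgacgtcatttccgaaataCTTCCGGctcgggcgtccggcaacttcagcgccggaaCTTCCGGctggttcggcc
Atp5j2 (chr5:145191492-145191641, - strand): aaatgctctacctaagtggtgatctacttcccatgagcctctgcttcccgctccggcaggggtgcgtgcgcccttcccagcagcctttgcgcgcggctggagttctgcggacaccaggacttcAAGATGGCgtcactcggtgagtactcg
Uqcrc1 (chr9:108936548-108936697, + strand): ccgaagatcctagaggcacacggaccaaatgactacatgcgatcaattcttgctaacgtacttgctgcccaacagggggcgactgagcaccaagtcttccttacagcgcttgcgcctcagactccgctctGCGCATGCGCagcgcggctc
Atp5b (chr10:128083207-128083356, + strand): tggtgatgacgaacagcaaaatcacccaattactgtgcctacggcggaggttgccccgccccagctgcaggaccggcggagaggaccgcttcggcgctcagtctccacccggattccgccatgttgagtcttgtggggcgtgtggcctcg

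Cox8a holds 2 ETS matches, Atp5j2 1 YY1 match, and Uqcrc1 2 overlapping NRF1 matches, 1 per strand. Cox7b and Atp5b hold 0 matches in their 300 bases. A promoter was found for 37 of the 48 members. NRF1 letters occurred in 7 of them (18.9%), against 3.05% of all 27025 genes with a promoter and 6.27% of the tested ones. ETS letters occurred in 12 (32.4%), against 9.93% of all and 21.7% of tested genes, and YY1 letters in 4 (10.8%), against 3.19% and 5.64%. At least 1 of the 3 was found in 17 members, among them Sdhb, Sdhd, Uqcrh, Uqcr11, Cox6a1, Cox6b1 and Atp5k.

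Members that encode short proteins had lower differences than those that encode long ones. Protein length was taken from GENCODE M21 coding sequences for all 45 tested members. For the 15 members under 100 residues the median difference was −0.33, for the 17 of 100 to under 200 residues −0.21, for the 8 of 200 to under 400 residues −0.08, and for the 5 of 400 or more residues 0.04. Tested genes of the same length classes had medians of −0.17 (212 genes), −0.08 (1248 genes), 0.03 (3190 genes) and 0.10 (6162 genes), so the same order held over all genes. Members lay below all genes in each class with all 6 libraries, but not without KO 1 or without WT 3. Without KO 1 the member medians were −0.11, −0.07, 0.12 and 0.23, and those of all tested genes −0.12, −0.04, 0.03 and 0.02. Without WT 3, members of 400 or more residues were at 0.127, against 0.099 for all tested genes. Across the 45 members, the difference and the length had a Spearman correlation of 0.60, and across 10812 tested genes 0.32. These are descriptions, since genes of the same libraries are not independent.

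The span over lengths was widest in pair 2. There, members under 100 residues had a median of −0.45 and those of 100 to under 200 residues −0.01. Those of 200 to under 400 residues were at 0.14 and those of 400 or more residues at 0.45. In these longer classes all tested genes were lower than the members, at 0.09 and 0.14. In pair 1 the 4 member medians were −0.37, −0.26, −0.29 and −0.29, and in pair 3 they were −0.31, −0.22, −0.07 and −0.05. In pair 2, KO was lower in 11 of 15 members under 100 residues and in 1 of 5 of 400 or more (Uqcrc2), while in pair 1 it was lower in 14 of 15 and in 5 of 5.

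**Figure D3:**
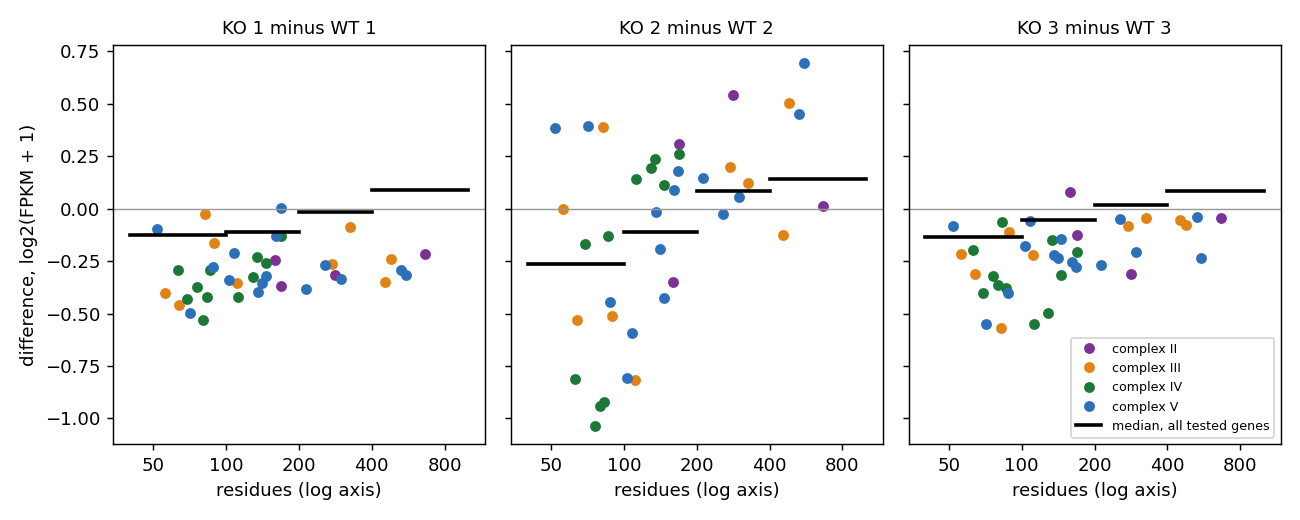
Difference in log2(FPKM + 1) of each member of 50 FPKM or more (points, coloured by complex) against the length of its protein in residues (log axis), KO minus WT in pairs 1, 2 and 3. Black bars are medians of all tested genes in the length classes under 100, 100 to under 200, 200 to under 400 and 400 or more residues. In pairs 1 and 3 nearly all points lie below 0, and in pair 2 they run from −1.04 (Cox6c) to 0.70 (Atp5a1).

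The library WT 2 stood apart in this respect. The summed FPKM of members under 100 residues, divided by that of members of 200 or more, was 1.58, 1.66 and 1.64 in KO 1 to KO 3, against 1.62, 2.73 and 1.86 in WT 1 to WT 3. WT 2 was thus the 1 library far from the others, while KO libraries and WT 1 nearly coincided. Among all tested genes, those under 100 residues deviated from their gene means by a median of 0.33 in WT 2 and those of 400 or more residues by −0.24. The short noncoding RNAs Rpph1 and Rmrp took 30.4% of all FPKM in WT 2 and between 10.7% and 20.6% in the others. Without WT 2, the medians of the 4 length classes were −0.12, −0.16, −0.00 and −0.06, and the median over all members was −0.06 with 32 of 45 lower, beside 0.01 over all tested genes. Without KO 1, the median over all members was −0.04, with 26 of 45 lower. In all 6 libraries alike, the spacing of low values was best matched with 200 bases taken off each transcript's length. Such a subtraction weighs most on transcripts as short as those of Atp5k (371 bases) or Atp5e (421 bases). The part of that in the values was not tested.

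**Figure D4:**
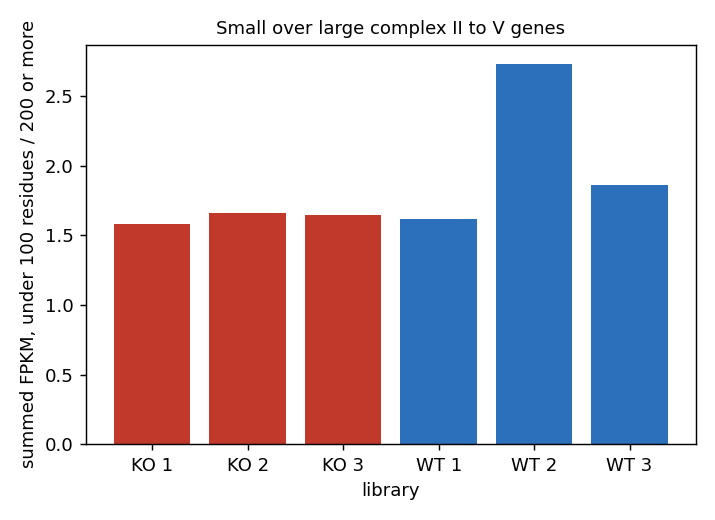
Summed FPKM of members encoding under 100 residues divided by that of members encoding 200 or more residues, for KO libraries (red) and WT libraries (blue). WT 2 reaches 2.73, and the other 5 libraries lie between 1.58 and 1.86.

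With the replicate number as a block, 8 of 45 members (17.8%) had an unadjusted p under 0.05 and lower values in KO, against 2.28% of tested genes. These were Cox7b, Cox6c, Uqcr10, Uqcrb, Cox7a2, Atp5l, Atp5j2 and Cox7c, each encoding a protein of 111 residues or fewer. All 8 had their highest value in WT 2 and their lowest in KO 1. Without WT 2 their differences, in the fit without the block, ran from −0.28 (Uqcr10) to 0.00 (Cox7c), against −0.61 to −0.38 with all 6 libraries. In the other direction there were 0 members, against 4.66% of tested genes. The smallest adjusted p among members in that fit was 0.584 (limma), for Cox7b, so none passed. The block takes differences between pairs out of the error, which lowered the SE of Cox7b to 0.16, compared with 0.37 without it.

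Partner genes of the same complexes were read beside the members. Of 39 tested assembly factors and partners of complexes II to V, limma called 0, and 23 had lower and 16 higher means in KO, with a median of −0.04. Over all tested genes 36.6% were lower, with a median of 0.06. Sdhaf4 and Sdhaf3, which help assemble complex II, differed by −0.60 (SE 0.35) and −0.56 (SE 0.33). Sdhaf4 averaged 18.5 ± 5.29 FPKM in KO and 29.7 ± 12.7 FPKM in WT, and Sdhaf3 8.11 ± 2.05 FPKM in KO and 13.0 ± 6.19 FPKM in WT (SD, n = 3 each). Surf1, a complex IV assembly factor, lay on the other side, at 33.1 ± 15.5 FPKM in KO and 23.1 ± 5.67 FPKM in WT. A short list, drawn up as carriers and regulators, had 4 tested genes: Cycs, Atpif1, Usmg5 and 2010107E04Rik. In it 4 were lower in KO and 0 called, with a median of −0.38. For 2010107E04Rik the difference was −0.41 (SE 0.31). Usmg5, a small protein of the ATP synthase membrane part that the rule does not match, was at 162, 207 and 252 FPKM in KO 1 to KO 3, against 247, 573 and 379 FPKM in WT 1 to WT 3. WT 1 exceeded KO 1 and KO 2 but not KO 3, and the difference of −0.88 (SE 0.33) did not pass (limma, adjusted p = 1.00). Cycs, cytochrome c, averaged 58.2 ± 16.0 FPKM in KO and 72.9 ± 10.6 FPKM in WT, and Atpif1, the inhibitor of ATP hydrolysis by complex V, 144 ± 37.1 FPKM in KO and 183 ± 89.1 FPKM in WT.

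Nuclear regulators of respiratory genes gave no common direction. Of 15 tested, 8 had lower and 7 higher means in KO, against 36.6% of all tested genes lower, and limma called 0. Nrf1 averaged 24.2 ± 5.69 FPKM in KO and 23.0 ± 2.65 FPKM in WT, Gabpa 23.9 ± 1.22 FPKM in KO and 24.7 ± 2.85 FPKM in WT, and Yy1 52.5 ± 7.25 FPKM in KO and 51.1 ± 11.5 FPKM in WT (SD, n = 3 each). Esrra, an orphan nuclear receptor that drives mitochondrial genes, was at 13.2, 12.1 and 13.3 FPKM in KO 1 to KO 3, against 11.7, 6.25 and 8.47 FPKM in WT 1 to WT 3. Its genotypes did not overlap, but the difference of 0.54 (SE 0.26) did not pass (limma, adjusted p = 1.00). Pparg, listed at 1.47, 0.37 and 1.47 FPKM in KO 1 to KO 3, against 1.74, 1.64 and 2.15 FPKM in WT 1 to WT 3, and Tfb2m, which encodes a mitochondrial transcription factor, at 14.85, 13.97 and 16.89 FPKM in KO 1 to KO 3, against 18.3, 21.7 and 17.4 FPKM in WT 1 to WT 3, did not overlap either, with differences of −0.48 (SE 0.31) and −0.31 (SE 0.21). The 36 tested complex I subunit genes, the remaining respiratory complex, had a median of −0.20 with 30 lower, and medians of −0.21, −0.14 and −0.17 in pairs 1 to 3. Of them limma called 0. Ndufa11 was at 8.80, 11.02 and 9.91 FPKM in KO 1 to KO 3, against 12.5, 14.4 and 13.9 FPKM in WT 1 to WT 3, and Ndufa3 averaged lower too, with differences of −0.42 (SE 0.21) and −0.34 (SE 0.20).

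A CD41+ gate may also take in other blood cells, so their markers are given too. For scale, 36.6% of all tested genes had lower means in KO. The monocyte and macrophage list had 10 of 11 tested genes higher in KO, with summed FPKM of 2124, 1477 and 1969 in KO 1 to KO 3, against 1021, 1499 and 2097 in WT 1 to WT 3. Of 9 neutrophil and granulocyte markers 7 were lower in KO, with sums of 3843, 4566 and 8813 in KO 1 to KO 3, against 5817, 7431 and 7119 in WT 1 to WT 3. Mast cell and basophil markers were lower in 5 of 6 (sums between 360 and 882 in KO and between 666 and 1100 in WT), erythroid markers in 5 of 6 (35.6 to 80.4 in KO and 52.9 to 113 in WT), and the eosinophil pair Prg2 and Epx in 2 of 2 (172 to 528 in KO and 391 to 694 in WT). Of 5 lymphoid markers, 1 was tested and was higher in KO (sums of 8.59 to 15.8 in KO and 9.10 to 15.6 in WT). Limma called 0 of these markers, and their part in the complex II to V values was not tested.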

How the data were processed

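The authors deposited 1 table of FPKM for the 6 libraries, by gene symbol. The tools named in the submitters' processing notes are RSEM 1.2.31, STAR 2.7.0a, Trimmomatic 0.39 and FastQC, and the build is mm9. No source used here states settings or annotation. RSEM shares reads between similar transcripts by estimation.

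Groups came from sample titles. The test was limma 3.58.1 in R 4.3.3 (eBayes with a trend, two-sided) on log2(FPKM + 1), KO against WT, for genes at 1 FPKM or more in at least 3 of the 6 libraries, with Benjamini-Hochberg adjustment over all tested genes and a threshold of 0.05. Fold changes on this scale understate the change of low genes. The fit was tested on simulated data without pairs, with planted changes larger than any member's difference and in genes of small spread. It therefore does not show whether changes of the members' size could be found. Deviations from group means correlated across genes between KO and WT libraries of the same number at r of 0.814, 0.595 and 0.381, all above 0.1, so the numbers were taken as pairs. Neither the meaning of a number nor separate mice are stated in the labels, so the p-values reflect only how these samples vary, which may be technical variation. Protein and transcript lengths came from GENCODE M21 (GRCm38) by symbol, for 10812 of 11249 tested genes. RefSeq proteins had been planned but were not used here.

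Members and lists were chosen with earlier results of these data known, so their counts and medians are descriptions without a test. Named members were each complex's non-overlapping genes (of which there were 0), the 3 of smallest p, the most abundant, core subunits and isoform sets. Some others, Surf1, Nrf1, Gabpa, Yy1 and Atpif1 among them, and the promoters shown, were chosen after their values were seen. Alternatives covered pseudocount, filter, scaling, the block and each library left out.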

Additional observations from a re-analysis of the deposited data

How the results depend on the processing

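The median over members was −0.18, and relative to the median of all genes it was −0.24. Rescaling libraries to a common FPKM sum moved all genes to 0.22 and the members to 0.0004, with 22 of 45 lower. Complex III was then at 0.0004 and complex IV at −0.10, and relative to all genes the members were at −0.22. With Rpph1, Rmrp and ribosomal protein genes left out of that sum, 31 members were lower and their median was −0.10. Rescaling by the median ratio gave 43 lower and a median of −0.25. Quantile normalization, without or with the replicate block, gave −0.15 for complex IV and −0.09 for the members relative to all genes. With 1 library left out the member median ran from −0.32 to −0.04, with 26 to 42 members lower, complex III from −0.40 to −0.0091 and complex IV from −0.49 to −0.11; in all 3 the value nearest 0 came without KO 1 and the lowest without KO 2. The causes were not tested. Complex II and complex V moved by less than the SD of their pair medians under every alternative, but that bound is loose. Their pair medians were far apart, at −0.28, 0.16 and −0.08 for complex II and −0.31, 0.06 and −0.21 for complex V. With 1 library left out, complex II ran from −0.26 without KO 2 to 0.05 without KO 1. Complex V ran from −0.26 without WT 1 to −0.01 without KO 1. With the common sum complexes II and V stood at 0.10 and 0.01. With the pseudocount, filter, scaling, block and left-out-library alternatives, 0 members were called.

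Over all genes the calls higher in KO were 1, with 0 without the low-value filter, 2 with the replicate block, 2 with the block and quantile normalization, and 0 to 1 with 1 library left out; calls lower were 1, and 1 to 2 with 1 library left out. With the block and only 2 pairs, chosen after seeing the data and leaving 1 residual degree of freedom, calls higher were 9, 94 and 68 without pair 1, 2 and 3, and calls lower 27, 48 and 50. In these fits 2 members passed without pair 2 (Atp5k at −0.52 and Cox6a1 at −0.49) and 1 without pair 3 (Cox7a1 at −1.13, from values under 6 FPKM). The block changed no other call on members. Depth is only approximate, so no counting interval was computed.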
